A study of Mus musculus with 8 samples.

Results

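A set of 10 genes of histidine breakdown and methylated glycine one-carbon catabolism was followed in mouse liver: Hal, Uroc1, Amdhd1, Ftcd, Sardh, Dmgdh, Gnmt, Bhmt, Chdh and Shmt1. They were chosen by name from those pathways, with earlier results of the same comparison known, and all 10 were found among the 20894 genes of the count table. A low-count filter left 10390 genes for testing, and 8 of the 10 passed it; Chdh and Shmt1 did not. RNA came from snap-frozen livers of wild-type mice that were taken after a fast during the day. The POLR2G group had received AAV8-TBG-POLR2G, an adeno-associated virus that carries POLR2G, a subunit of RNA polymerase II. The GFP group had received AAV8-TBG-GFP, the same kind of virus with green fluorescent protein, so that both groups carried virus and had fasted. The TBG promoter is active mainly in hepatocytes, and each group had 4 libraries of poly-A RNA. The sources used here give no age or sex, and the labels tie no library to an animal, so every p-value measures the spread between libraries, which may be technical.

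Histidine is broken down in the liver by a chain of enzymes in the cytosol. Hal removes ammonia to give urocanate, Uroc1 hydrates urocanate to imidazolone propionate, Amdhd1 opens the ring, and Ftcd passes the formimino group to tetrahydrofolate, where it joins the pool of folate-bound carbon. The other genes handle methyl groups. Chdh oxidises choline on the way to betaine, Bhmt uses betaine to methylate homocysteine and leaves dimethylglycine, and the mitochondrial flavoproteins Dmgdh and Sardh strip the methyl groups from dimethylglycine and then from sarcosine. Gnmt makes sarcosine from glycine and S-adenosylmethionine, and Shmt1 interconverts serine and glycine in the cytosol with tetrahydrofolate as the carbon carrier.

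The sequences just before the start sites are shown for the 4 genes of the histidine chain, which are unlike in this stretch, and for Gnmt and Sardh of the methyl-handling genes, one with and one without the letters of a TATA box. Each line gives the 60 bases before the RefSeq start on GRCm38.p6, read 5′ to 3′ on the gene's own strand; capitals mark TATAA, the core of a TATA box, and the adjoining T where matches on both strands overlap. Hal lies at chr10:93488708-93488767 (plus strand), Uroc1 at chr6:90333229-90333288 (plus), Amdhd1 at chr10:93540034-93540093 (minus), Ftcd at chr10:76575588-76575647 (plus), Gnmt at chr17:46729166-46729225 (minus) and Sardh at chr2:27247304-27247363 (minus).
Hal: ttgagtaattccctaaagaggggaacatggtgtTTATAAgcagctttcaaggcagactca
Uroc1: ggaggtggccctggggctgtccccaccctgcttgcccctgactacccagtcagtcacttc
Amdhd1: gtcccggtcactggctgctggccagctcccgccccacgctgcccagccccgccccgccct
Ftcd: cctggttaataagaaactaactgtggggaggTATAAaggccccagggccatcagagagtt
Gnmt: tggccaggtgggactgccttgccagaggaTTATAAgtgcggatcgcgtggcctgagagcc
Sardh: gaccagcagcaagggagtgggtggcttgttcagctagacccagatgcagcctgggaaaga

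TATAA was searched on both strands from 40 to 16 bases before the start, and 4.35% of 32851 RefSeq promoter windows held it there. It was present in 3 of the 10 members: on the gene's own strand its first base lay 26 bases before the start in Hal, 29 in Ftcd and 30 in Gnmt. The letters were absent from that stretch of the other 7 members, Uroc1, Amdhd1, Sardh, Dmgdh, Bhmt, Chdh and Shmt1. In Sardh, Bhmt and Shmt1 the RefSeq start lies well inside the gene as the GENCODE M21 annotation gives it. The stretch before the GENCODE start of these genes was not searched. Hal and Ftcd, which hold the letters, and Sardh and Dmgdh, which lack them, stood apart between the groups. Gnmt, which holds them, and Uroc1, Amdhd1 and Bhmt, which lack them, overlapped. Whether the letters bear on the levels was not tested. The promoters also ranged widely in CpG dinucleotides from 250 bases before to 50 after the start, with 0 in Uroc1, 3 in Ftcd, 4 in Sardh, 25 in Dmgdh and 26 in the first window of Chdh, against a median of 7 over all windows. Chdh has 3 windows, with 26, 4 and 4 CpG dinucleotides, and its first was used in the counts of members. AGGTCA, the half-site of many nuclear receptors, was found on either strand of the 250 bases before the start in 4 members (Uroc1, Sardh, Gnmt and Bhmt) and in 14.0% of all windows. In the same stretch GTTAAT was found in 1 member (6.43% of all windows), TGACG in 2 (17.8%) and CCAAT in 5 (33.8%). These matches describe letters in a window and say nothing of binding.

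A second feature of position concerns Dmgdh, whose start faces that of Bhmt2, a homologue of Bhmt that methylates homocysteine from S-methylmethionine. The genes run away from each other on chromosome 13, Bhmt2 on the minus and Dmgdh on the plus strand, and the 133 bases between their RefSeq starts are shown because they lie upstream of both. This stretch, chr13:93674303-93674435 on GRCm38.p6 read on the plus strand, holds 0 matches to TATAA or CCAAT on either strand.
Bhmt2-Dmgdh: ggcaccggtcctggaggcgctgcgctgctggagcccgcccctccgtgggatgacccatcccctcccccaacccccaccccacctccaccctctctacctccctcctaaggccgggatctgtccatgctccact

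The libraries held 16362899 to 22165491 estimated counts in the POLR2G group and 14159056 to 18865284 in the GFP group. Polr2g, the check of the labels, averaged 2412 ± 154 CPM (the count scaled by library size) in POLR2G libraries and 13.7 ± 1.0 CPM in GFP libraries (SD, n = 4 each). Hepatocyte markers (8 of 10 in the table) summed to 111215 to 123574 CPM in POLR2G libraries and 117434 to 138318 CPM in GFP libraries. The summed markers of Kupffer cells, endothelium, stellate cells, cholangiocytes, leukocytes and erythrocytes overlapped between the groups too. By single markers, 6 of 7 tested Kupffer cell and macrophage markers had a higher mean in POLR2G libraries (median log2 fold change 0.23), as did 5 of 5 erythrocyte markers (median 0.15), 4 of 5 endothelial markers (0.11) and 4 of 5 stellate markers (0.12). The endothelial marker that was lower, Lyve1, averaged 7.00 ± 0.661 CPM in POLR2G libraries and 12.6 ± 5.82 CPM in GFP libraries (SD, n = 4 each). For Lyve1, every POLR2G library lay below every GFP library. Of 8 tested hepatocyte markers 4 were higher and 4 lower (median -0.032). Ttr, the carrier of thyroxine, was lower in every POLR2G library, at 5013 ± 167 CPM against 5709.6 ± 467 CPM in GFP libraries (SD, n = 4 each). Cebpa went the other way, at 76.1 ± 18.9 CPM in POLR2G libraries and 46.5 ± 12.6 CPM in GFP libraries (SD, n = 4 each). For Cebpa, 3 POLR2G libraries lay above all GFP libraries. No marker of these lists passed edgeR's test over all genes, and the part of these differences in the members' values was not tested.

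All 8 tested members had a higher mean in POLR2G livers, but by small folds, and 49.3% of all genes tested also had a log2 fold change above 0. The largest differences were in Ftcd, Sardh, Hal and Dmgdh, whose log2 fold changes were 0.39, 0.36, 0.32 and 0.29; Uroc1 and Amdhd1 sat at 0.013 and 0.0097, and at -0.066 and -0.071 when libraries were scaled by their totals only. The median over the 8 members was 0.25, beside -0.0031 over all genes tested. None of the 8 passed an adjusted p of 0.05 in edgeR's quasi-likelihood test over all 10390 genes, in which 0.0385% of genes were called; the members' adjusted p ran between 0.131 for Ftcd and 0.992 for Uroc1. At an unadjusted p under 0.05, 5 of the 8 were higher, where 4.2% of all genes were higher at that p and 8.3% differed in either direction. In 4 of the 8, every POLR2G library lay above every GFP library, where 2.83% of all genes did so and 5.51% had groups apart in either direction. DESeq2 called Ftcd, Sardh and Hal (adjusted p of 2.3e-06, 0.0062 and 0.0010), where it called 0.762% of all genes higher, and limma-voom called none of them, with 0.0192% of all genes higher. Because the genes were picked with this comparison known, these counts describe them and are no test of the list. In bulk RNA, fewer cells of a type and less RNA per cell cannot be told apart.

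**Figure D1:**
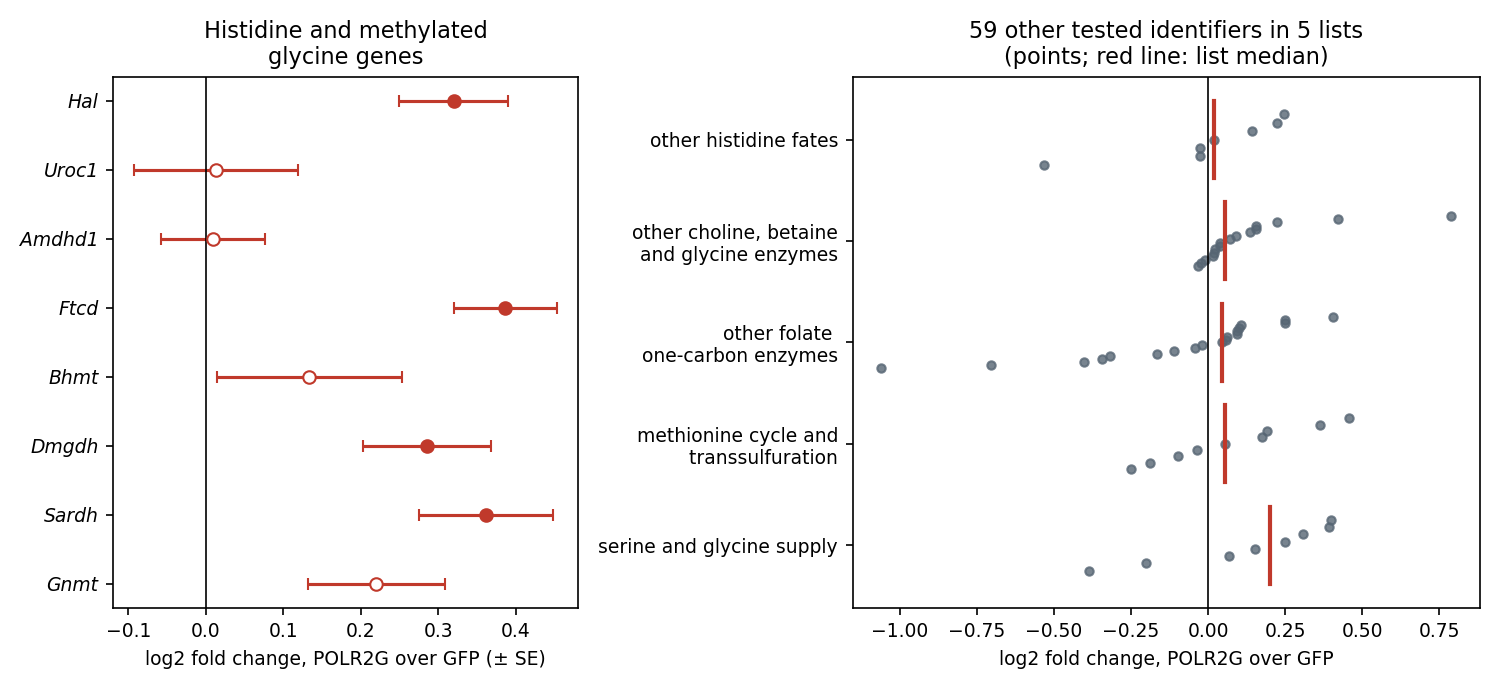
Log2 fold change, POLR2G over GFP, for the 8 tested members, with bars of 1 SE and filled points where the groups do not overlap (left), and for the 59 tested identifiers of 5 other pathway lists, with a red line at each median (right). Ftcd, Sardh, Hal and Dmgdh lie between 0.29 and 0.39, Uroc1 and Amdhd1 lie near 0, and the list medians lie between 0.020 and 0.20.

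Within the histidine chain, the first and last steps stood higher in POLR2G livers and the middle steps overlapped. Hal, the ammonia-releasing first step, had 342, 309.7, 313 and 311 CPM in POLR2G replicate 1, the unnumbered POLR2G library, and POLR2G replicates 3 and 4, against 231, 263, 261 and 268 CPM in GFP replicates 1 to 4. All POLR2G libraries lay above all GFP libraries, with POLR2G replicate 1 the highest and GFP replicate 1 the lowest. The means were 319 ± 15.5 CPM in POLR2G livers and 256 ± 16.9 CPM in GFP livers (SD, n = 4 each), a log2 fold change of 0.32 (SE 0.071). Hal (ENSMUSG00000020017) lies on the plus strand at chr10:93488768-93519304 (GRCm38, GENCODE M21), and its principal transcript has 20 exons.

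Ftcd, which closes the chain, stood apart as clearly as Hal. It had 319, 301, 327 and 313 CPM in POLR2G replicate 1, the unnumbered library, and replicates 3 and 4, against 254, 253, 224 and 233 CPM in GFP replicates 1 to 4. The lowest POLR2G library, the unnumbered one, was still well above the highest GFP library. The means were 315 ± 11.05 CPM in POLR2G livers and 241 ± 14.8 CPM in GFP livers (SD, n = 4 each), or 1.31-fold (log2 0.39, SE 0.066). Ftcd (ENSMUSG00000001155, chr10:76575648-76590338, plus strand) has 14 exons in its principal transcript.

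The steps between them showed no such separation. Uroc1, the urocanate hydratase, had 39.3, 35.3, 41.8 and 35.0 CPM in the POLR2G libraries in the same order, against 32.3, 38.3, 35.5 and 43.8 CPM in GFP replicates 1 to 4. The GFP libraries held both the lowest and the highest value. The log2 fold change was 0.013 with a 95% interval of -0.22 to 0.25. Uroc1 (ENSMUSG00000034456) lies at chr6:90333284-90364551 on the plus strand, and with 551 to 814 counts per library it was the scarcest of the tested members.

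Amdhd1, the imidazolonepropionase, had 137, 137, 133 and 137 CPM in the POLR2G libraries in that order, against 123, 145, 139.7 and 133 CPM in GFP replicates 1 to 4. The POLR2G values were tight (136 ± 2.18 CPM) and lay within the span of the GFP values (135 ± 9.66 CPM; SD, n = 4 each). The log2 fold change was 0.0097, with a 95% interval of -0.14 to 0.16. The point estimates of Hal and Ftcd lay above it, but the interval of Hal itself began at 0.16. Whether Amdhd1 differed from Hal or Ftcd in fold was not tested. Amdhd1 (ENSMUSG00000015890, chr10:93523338-93540033) lies on the minus strand tail to tail with Hal, with 4033 bases between the genes.

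**Figure D2:**
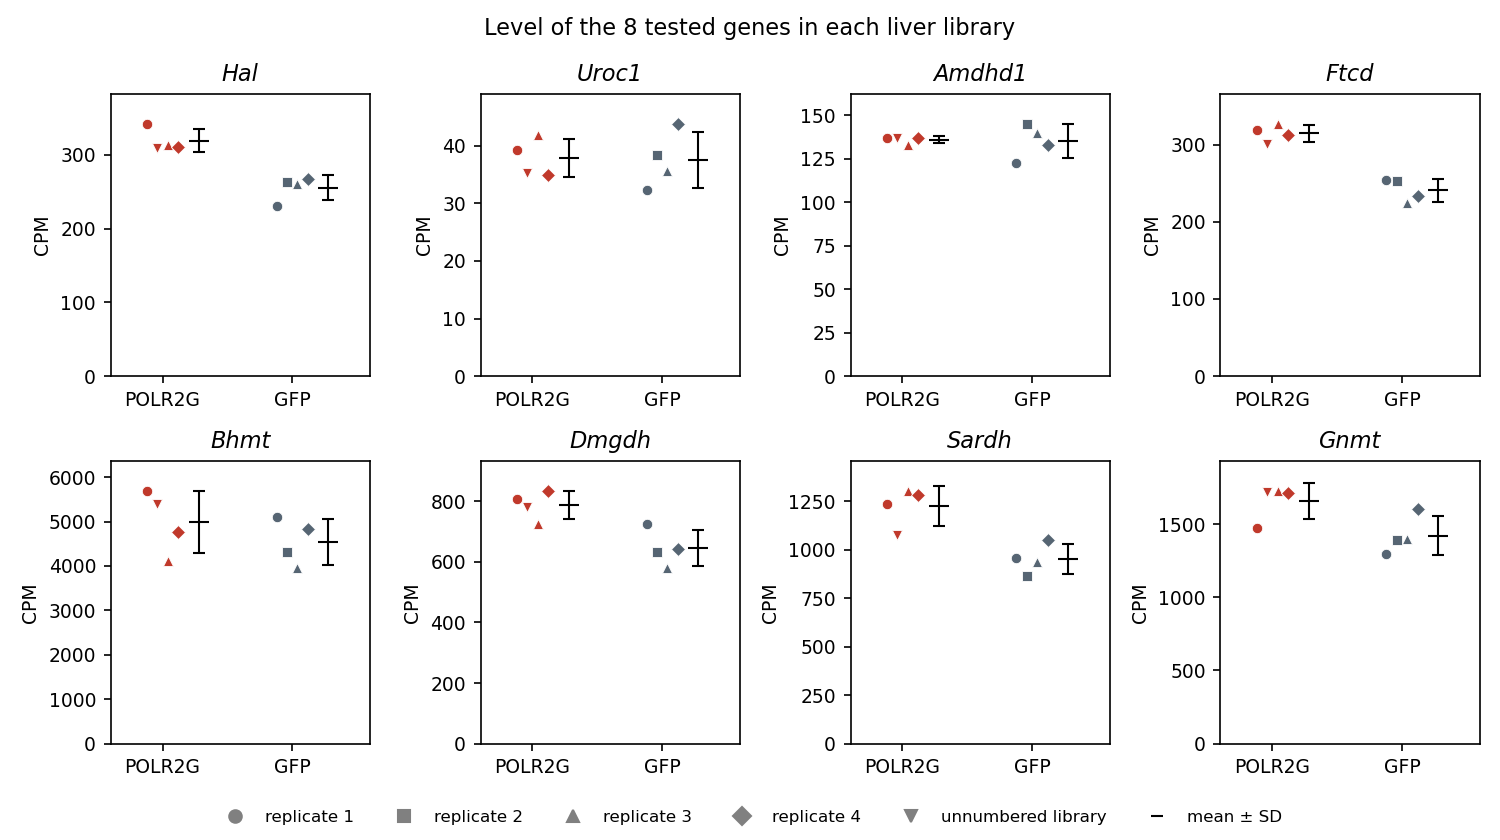
Level of each tested member in CPM by library, POLR2G left of GFP, with points for libraries and bars for the mean ± SD. The groups do not overlap in Hal, Ftcd, Sardh and Dmgdh, and they overlap in Uroc1, Amdhd1, Gnmt and Bhmt.

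The same levels can be set against each other without any scaling between libraries, as a ratio of counts within a library. Hal stood at 2.50, 2.26, 2.36 and 2.27 times Amdhd1 in POLR2G replicate 1, the unnumbered library, and replicates 3 and 4, against 1.88, 1.81, 1.87 and 2.01 times in GFP replicates 1 to 4. Every POLR2G ratio was above every GFP ratio. Ftcd averaged 2.32 ± 0.112 times Amdhd1 in POLR2G livers and 1.79 ± 0.198 times in GFP livers (SD, n = 4 each), again without overlap. The ratio of Hal to Ftcd, the ends of the chain, was 1.01 ± 0.0489 in POLR2G livers and 1.07 ± 0.119 in GFP livers and overlapped. In all, 12 ratios were computed, chosen after values were seen, and 6 of them did not overlap. The share over other pairs of genes was not computed, and the ratios are given with no test. A ratio of Hal, Ftcd, Sardh or Dmgdh to a near-level gene largely restates the difference of that member.

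The methyl-removing flavoproteins also stood apart. Sardh, which oxidises sarcosine to glycine, had 1237, 1077, 1301 and 1283 CPM in POLR2G replicate 1, the unnumbered library, and replicates 3 and 4, against 958, 866, 938 and 1051 CPM in GFP replicates 1 to 4. The groups did not overlap, although the unnumbered POLR2G library came close to GFP replicate 4. The means were 1224 ± 102 CPM in POLR2G livers and 953 ± 76.2 CPM in GFP livers (SD, n = 4 each), a log2 fold change of 0.36 (SE 0.087). Sardh (ENSMUSG00000009614) lies on the minus strand at chr2:27188393-27248337 and has 4 coding transcripts.

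Pipox, a peroxisomal enzyme that also oxidises sarcosine, served as the neighbour in function. It averaged 331 ± 27.8 CPM in POLR2G livers and 333 ± 23.8 CPM in GFP livers (SD, n = 4 each), a log2 fold change of -0.011 (SE 0.083). Sardh was 4.15, 3.39, 3.63 and 3.68 times Pipox in the POLR2G libraries in the same order, against 3.16, 2.53, 2.85 and 2.92 times in GFP replicates 1 to 4. The mitochondrial enzyme was thus higher relative to the peroxisomal one in every POLR2G library than in any GFP library. This restates the difference of Sardh beside a near-level Pipox.

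Dmgdh, which oxidises dimethylglycine to sarcosine, had 808, 780.3, 725 and 833 CPM in POLR2G replicate 1, the unnumbered library, and replicates 3 and 4, against 724, 634, 580.0 and 643 CPM in GFP replicates 1 to 4. The groups only just missed each other: POLR2G replicate 3, at 725.2 CPM, was level with GFP replicate 1, at 724.1 CPM. The means were 786 ± 46.2 CPM in POLR2G livers and 645 ± 59.5 CPM in GFP livers (SD, n = 4 each), a log2 fold change of 0.29 (SE 0.083). Dmgdh (ENSMUSG00000042102) lies at chr13:93674433-93752833 on the plus strand.

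Bhmt2, whose start faces that of Dmgdh across the stretch printed above, averaged 265 ± 11.3 CPM in POLR2G livers and 262 ± 9.11 CPM in GFP livers (SD, n = 4 each). Its log2 fold change was 0.019 (SE 0.061). The ratio of Dmgdh to Bhmt2 was 2.97 ± 0.210 in POLR2G livers and 2.47 ± 0.233 in GFP livers and did not overlap. Dmgdh and Bhmt2 thus stood in a different proportion in each group, which restates the difference of Dmgdh beside a near-level Bhmt2.

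Bhmt, the betaine-homocysteine methyltransferase and the most abundant member, varied widely between libraries. It had 5681, 5397, 4115 and 4769.8 CPM in POLR2G replicate 1, the unnumbered library, and replicates 3 and 4, against 5098, 4315, 3944 and 4839 CPM in GFP replicates 1 to 4. Only 2 POLR2G libraries lay above all GFP libraries. The log2 fold change was 0.13 with a 95% interval of -0.14 to 0.40. Bhmt (ENSMUSG00000074768) lies at chr13:93616675-93637961 on the minus strand, with Bhmt2 between it and Dmgdh.

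Gnmt, the glycine N-methyltransferase, had 1471, 1719.9, 1724 and 1712 CPM in POLR2G replicate 1, the unnumbered library, and replicates 3 and 4, against 1295, 1394, 1396 and 1604 CPM in GFP replicates 1 to 4. Every POLR2G library but replicate 1 lay above all GFP libraries. The means were 1657 ± 124 CPM in POLR2G livers and 1422 ± 130 CPM in GFP livers (SD, n = 4 each), a log2 fold change of 0.22 (SE 0.088). Gnmt (ENSMUSG00000002769) is a short gene of 6 exons on the minus strand at chr17:46725664-46729168.

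Gnmt draws its methyl group from S-adenosylmethionine, which the Mat1a product makes in the adult liver. Mat1a averaged 3553 ± 363 CPM in POLR2G livers and 4054 ± 739 CPM in GFP livers (SD, n = 4 each), a log2 fold change of -0.19 (SE 0.13). Gnmt was 0.464, 0.507, 0.429 and 0.472 times Mat1a in POLR2G replicate 1, the unnumbered library, and replicates 3 and 4, against 0.339, 0.416, 0.274 and 0.405 times in GFP replicates 1 to 4. This ratio did not overlap, although Gnmt on its own did.

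**Figure D3:**
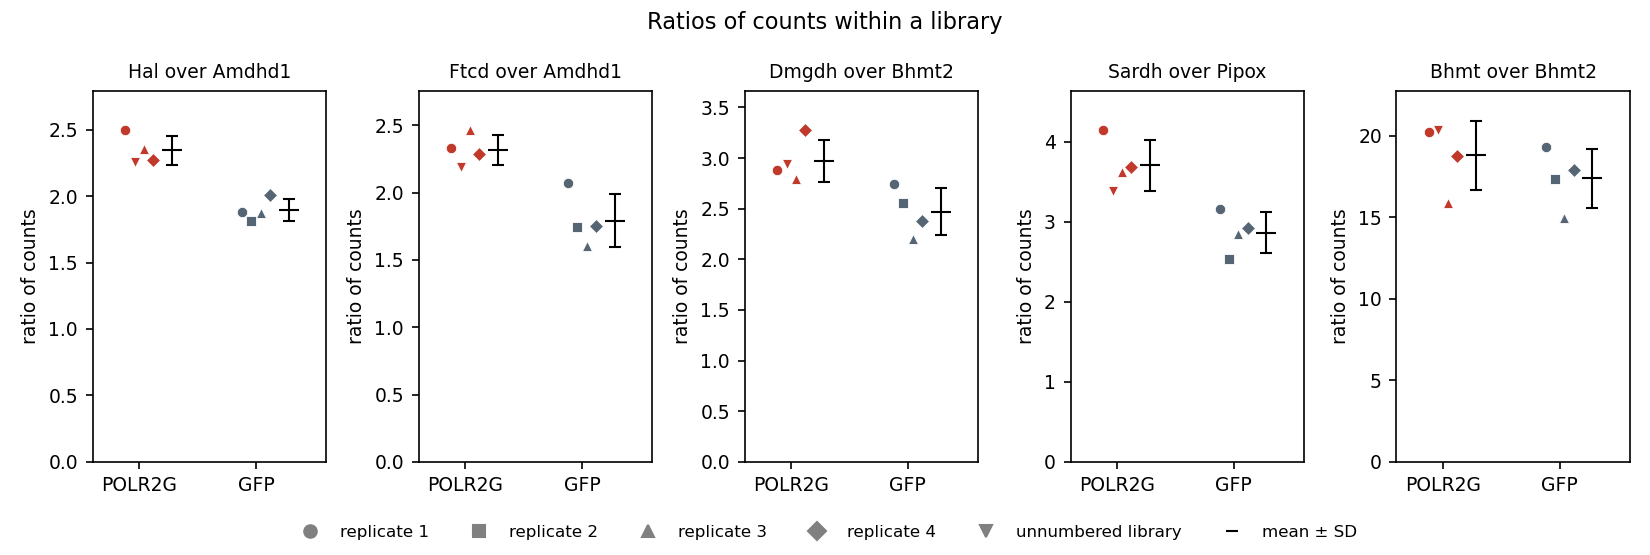
Ratios of counts within each library for 5 pairs of enzymes, POLR2G left of GFP, with points for libraries and bars for the mean ± SD. The groups of the ratio of Hal to Amdhd1 do not overlap, at 2.35 in POLR2G livers and 1.89 in GFP livers.

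Chdh and Shmt1 were near 0 in the table and allow no fold. Chdh, the choline dehydrogenase, had 0, 3, 7 and 0 counts in POLR2G replicate 1, the unnumbered library, and replicates 3 and 4, against 6, 6, 17 and 3 counts in GFP replicates 1 to 4. Shmt1, the cytosolic serine hydroxymethyltransferase, had 17 counts in POLR2G replicate 3 and 0 in the other POLR2G libraries, against 18, 8, 0 and 13 counts in GFP replicates 1 to 4. Liver is known to use both enzymes, and their low counts were unlike the tissue, whose hepatocyte markers were abundant. Ahcy, the hydrolase of S-adenosylhomocysteine that the methionine cycle depends on, was as scarce, with 0 to 17 counts in POLR2G libraries and 4 to 9 in GFP libraries. GENCODE M21 gives 2 coding transcripts to Chdh, 3 to Shmt1 and 2 to Ahcy, and whether the gene values hold all of a gene's transcripts was not tested. Among the tested members, Hal, Amdhd1, Ftcd, Dmgdh, Gnmt and Bhmt have 1 coding transcript each, Uroc1 has 2 and Sardh 4.

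To compare the genes with each other, CPM was divided by the length of the principal transcript in kilobases. The members spanned orders of magnitude. In POLR2G livers Bhmt (2004) and Gnmt (1601) led without separating from each other, Sardh (271) and Dmgdh (263) followed and also overlapped, and Ftcd (163), Hal (59.98), Amdhd1 (56.2) and Uroc1 (11.2) came in separate steps. In GFP livers the order was Bhmt (1827), Gnmt (1374), Dmgdh (216) and Sardh (211), the last pair overlapping, and then Ftcd (125), Amdhd1 (55.8), Hal (48.1) and Uroc1 (11.1). On this scale Hal lay above Amdhd1 in POLR2G livers, at 58.2 to 64.3 against 54.8 to 56.7. It lay narrowly below Amdhd1 in GFP livers, at 43.4 to 50.3 against 50.6 to 59.9. These opposite ranks rest on the annotated lengths of 5319 bases for Hal and 2421 for Amdhd1. In counts, Hal was 1.81 to 2.50 times Amdhd1 over the libraries of both groups. Whether the ranks hold with other lengths was not tested. Chdh and Shmt1 were below 1 CPM per kilobase in every library.

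**Figure D4:**
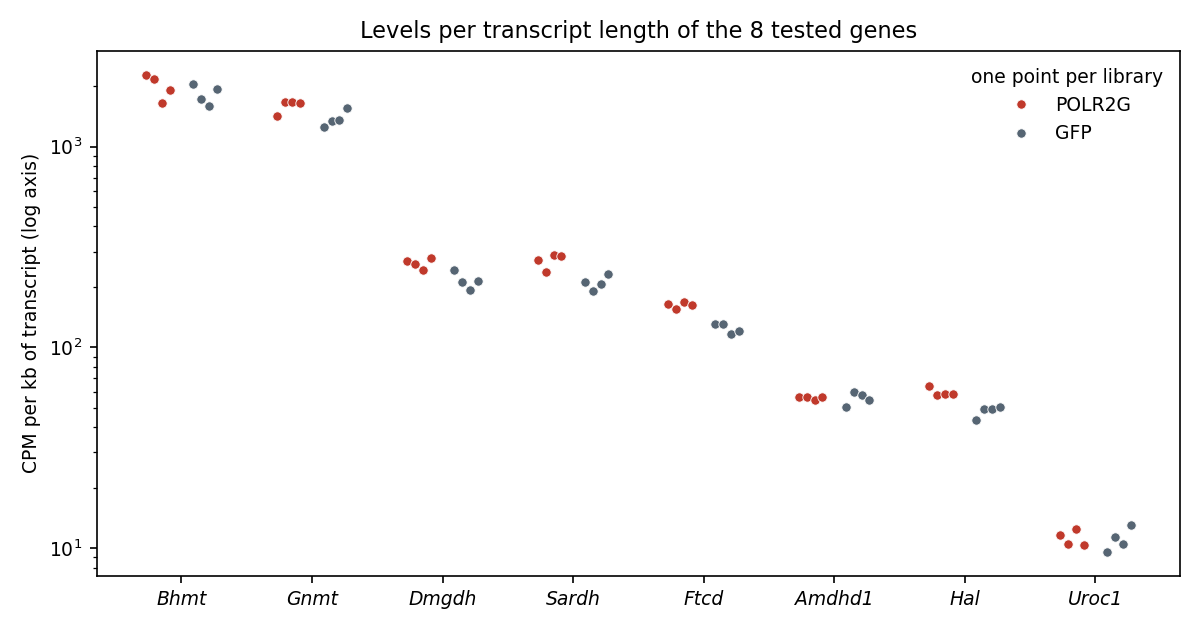
Level of the 8 tested members per kilobase of principal transcript (CPM per kilobase, log axis), POLR2G left of GFP, with points for libraries. Bhmt and Gnmt lead, and Uroc1 is the lowest tested member. Hal and Amdhd1 are in opposite order in the groups on this scale, which rests on the annotated transcript lengths.

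Within a group, pairs of members differed in how they went together. After each group's mean was subtracted, the 28 pairs of tested members had correlations over the 8 libraries from -0.55 (Amdhd1 and Dmgdh) to 0.74 (Dmgdh and Bhmt), with a median of 0.027. The correlation was positive in 14 pairs. In these deviations Hal went with Uroc1 (0.69) and Amdhd1 (0.68), genes whose levels overlapped between the groups. GFP replicate 1 weighed heavily in both values. It had the lowest deviation of all libraries for Hal (-0.15), Uroc1 (-0.20) and Amdhd1 (-0.14). The correlations without it were not computed. The points share libraries, scaling and depth, and the correlations are given as a description.

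Over all 8 libraries, with the group difference left in, the genes whose log2 CPM was most like Hal among 6005 genes were Fdxr (Pearson r of 0.99), Adssl1 (0.96), Man1b1 (0.96), Mccc2 (0.96) and Gpt (0.96). Fdxr encodes the mitochondrial ferredoxin reductase, Mccc2 a subunit of the leucine-degrading methylcrotonyl-CoA carboxylase and Gpt the cytosolic alanine aminotransferase. Of the members, Ftcd (0.83) and Sardh (0.81) were nearest to Hal; Gnmt (0.69) and Dmgdh (0.65) followed, and Amdhd1 (0.37), Uroc1 (0.35) and Bhmt (0.32) were far down the order. For Sardh the nearest were Serpina1d (0.96), Dgcr2 (0.95) and Ulk2 (0.95), and for Gnmt Herc4 (0.97), Oaz2 (0.97) and Acvr1 (0.93). The 8 libraries share depth and scaling, and the correlations include the difference between the groups.

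Other enzymes around the members, taken by function in 5 lists, were read beside the members. Of 72 genes listed, 71 were in the table and 59 identifiers were tested; edgeR called 0 of them, 38 had a higher and 21 a lower mean in POLR2G livers, and the median log2 fold change was 0.059. At an unadjusted p under 0.05, 6 were higher and 2 lower, where 4.2% of all genes were higher and 8.3% differed in either direction. In 3 (Slc38a3, Mat2b and Agxt2) every POLR2G library lay above every GFP library, and in 2 (Hdc and Mthfd1l) below. Of all genes, 5.51% had groups apart in either direction. DESeq2 called 2, Slc38a3 and Agxt2, both higher, and limma-voom called 0.

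Among 7 tested genes of other histidine fates, 4 were higher and 3 lower, with a median of 0.020. Slc38a3, a transporter of glutamine and histidine, averaged 1681 ± 89.4 CPM in POLR2G livers and 1419 ± 63.6 CPM in GFP livers (SD, n = 4 each; log2 0.24, SE 0.068, edgeR adjusted p = 0.360), and its groups did not overlap. Hdc, which makes histamine from histidine, averaged 10.4 ± 1.03 CPM in POLR2G livers and 15.1 ± 2.67 CPM in GFP livers (SD, n = 4 each; log2 -0.53, SE 0.15, edgeR adjusted p = 0.359), and every POLR2G library lay below every GFP library.

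Of 16 tested enzymes of choline, betaine and glycine metabolism, 13 had a higher and 3 a lower mean, with a median log2 fold change of 0.054. Aldh7a1, which can oxidise betaine aldehyde, averaged 133 ± 16.7 CPM in POLR2G livers and 77.3 ± 37.8 CPM in GFP livers (SD, n = 4 each; log2 0.79, SE 0.30, edgeR adjusted p = 0.514); GFP replicate 3, at 124 CPM, overlapped the POLR2G libraries. Etfb, a subunit of the flavoprotein that takes electrons from Dmgdh and Sardh, averaged 327 ± 11.3 CPM in POLR2G livers and 293 ± 24.1 CPM in GFP livers (SD, n = 4 each; log2 0.16, edgeR adjusted p = 0.620). Pemt, which makes phosphatidylcholine by methylation, was at 259 ± 4.6 CPM in POLR2G livers and 265 ± 20.2 CPM in GFP livers.

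The folate enzymes divided evenly, with 10 of 19 higher, 9 lower and a median of 0.044. Aldh1l1, which removes formyl groups from tetrahydrofolate as carbon dioxide, averaged 126 ± 13.6 CPM in POLR2G livers and 106 ± 8.76 CPM in GFP livers (SD, n = 4 each; log2 0.25, edgeR adjusted p = 0.505). Mthfd1l, the mitochondrial formyltetrahydrofolate synthetase, was scarce, at 1.86 ± 0.436 CPM in POLR2G livers and 3.03 ± 0.223 CPM in GFP livers (SD, n = 4 each; log2 -0.70, edgeR adjusted p = 0.485). Shmt2, the mitochondrial counterpart of Shmt1, was at 204 ± 11.01 CPM in POLR2G livers and 191 ± 10.3 CPM in GFP livers, and Mthfd1, the trifunctional cytosolic enzyme, at 269 ± 8.76 CPM in POLR2G livers and 261 ± 18.6 CPM in GFP livers.

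In the methionine cycle and transsulfuration list, 5 of 9 tested genes were higher and 4 lower, with a median of 0.056. Mat2b, a regulatory subunit of methionine adenosyltransferase, averaged 9.17 ± 1.23 CPM in POLR2G livers and 6.68 ± 0.494 CPM in GFP livers (SD, n = 4 each; log2 0.46, edgeR adjusted p = 0.431). Cth, the cystathionine gamma-lyase, averaged 497 ± 51.5 CPM in POLR2G livers and 435 ± 48.7 CPM in GFP livers (SD, n = 4 each; log2 0.19, edgeR adjusted p = 0.681). Cbs, the step before it, was at 36.8 ± 16.03 CPM in POLR2G livers and 43.8 ± 8.09 CPM in GFP livers.

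The enzymes that supply serine and glycine had the highest median of the 5 lists, 0.20, with 6 of 8 tested identifiers higher and 2 lower. Agxt2, a mitochondrial aminotransferase that makes glycine from glyoxylate, had 220.2, 219, 206 and 242 CPM in POLR2G replicate 1, the unnumbered library, and replicates 3 and 4, against 178, 170.0, 149.6 and 179 CPM in GFP replicates 1 to 4. The groups did not overlap, and the log2 fold change was 0.39 (SE 0.080, edgeR adjusted p = 0.198), as large as that of Ftcd. Gcat, which splits aminoketobutyrate into glycine and acetyl-CoA, has 2 identifiers in the table; ENSMUSG00000006378 averaged 72.9 ± 10.9 CPM in POLR2G livers and 55.4 ± 12.4 CPM in GFP livers (SD, n = 4 each; log2 0.40, edgeR adjusted p = 0.543). The other, ENSMUSG00000116378, averaged 16.9 ± 3.43 CPM in POLR2G livers and 19.4 ± 7.11 CPM in GFP livers (SD, n = 4 each; log2 -0.20, edgeR adjusted p = 0.902), and reads may be split between them.

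Many amino acid-degrading enzymes, Hal among them, are known to be concentrated around the portal vein, so zonated genes were read beside the members. Of 12 tested periportal markers, 4 were higher and 8 lower in POLR2G livers, with a median of -0.048, and their summed level was 28350 to 32742 CPM in POLR2G libraries and 30959 to 32485 CPM in GFP libraries. Of 11 tested pericentral markers, 6 were higher and 5 lower, with a median of 0.037, and their summed level overlapped as well. Single genes weighed heavily in these sums, Mup20 (14015 CPM in POLR2G livers) in the periportal and Cyp2e1 (8611 CPM) in the pericentral. Groups did not overlap for periportal Cyp2f2 (log2 0.20), pericentral Rhbg (0.88) and pericentral Slc1a4 (-0.97), where 5.51% of all genes were apart. None of the zonated markers passed edgeR's test over all genes. Lgr5 was at 0 in every library.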

How the data were processed

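Libraries of poly-A RNA kept the strand, per the labels' protocols. The deposited table holds the authors' estimated counts per gene as whole numbers, not normalized; Salmon 1.2.1 and the builds GRCm38 and mm10 are named in the submitters' processing notes, and how transcripts were summed to genes is not given in the sources used here. GENCODE M21 gave symbols for 20817 of 20894 identifiers, 5422 genes had 0 counts in every library, and 0 columns were left out. The labels list no match for the number of 1 POLR2G column; it entered as the unnumbered POLR2G library.

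Members and gene lists were chosen with earlier results of these data known. The test was edgeR 4.0.16 (R 4.3.3), quasi-likelihood, TMM scaling, filterByExpr (minimum count 10, minimum total 15), group as the only term, two-sided, 10390 genes, Benjamini-Hochberg, threshold 0.05. The SE is the log2 fold change divided by the square root of F, and 95% intervals use the fit's degrees of freedom. CPM uses TMM library sizes; correlations use log2 CPM with a prior count of 2 and genes with a mean of at least 3. DESeq2 1.42.0 and limma-voom (limma 3.58.1) were alternatives. The fit was tested on simulated data for this comparison with 10390 genes, where edgeR found 16% of the genes changed 1.5-fold and 56% of those changed 2-fold (130 calls, 8 of them false). DESeq2 found 36% and 64% (175 calls, 36 false) and limma-voom 16% and 48% (125 calls, 9 false). Within a group, libraries differed by a chi-square per degree of freedom of 13.7 to 138, so none was a duplicate. Named genes are all members, the 2 genes with the smallest p of each pathway list, the genes most like Hal (5), Sardh (3) and Gnmt (3), and set neighbours in position or function; not every gene taken is printed.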

Additional observations from a re-analysis of the deposited data

Results flagged for a closer look

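Of 20 groups of 4 libraries (10 members in each group of mice), 4 held a library whose gap to its nearest neighbour was too large a part of the group's range by Dixon's 95% criterion, and chance gives about 1 in 20. POLR2G replicate 1 stood above the other POLR2G libraries for Hal, at 342 CPM against 309.7 to 313 CPM, and below them for Gnmt, at 1471 CPM against 1712 to 1724 CPM. For Amdhd1, POLR2G replicate 3 stood lower, at 133 CPM, where the others spanned only 136.9 to 137.2 CPM. For Shmt1, POLR2G replicate 3 held 0.995 CPM and the other POLR2G libraries 0. The cause was not tested. Without POLR2G replicate 1, the log2 fold change of Hal was 0.28 and that of Gnmt 0.27.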

How the results depend on the processing

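The log2 fold changes of Hal, Ftcd, Sardh, Dmgdh, Gnmt and Bhmt stayed above 0 under all 18 alternatives; Hal ran between 0.24 and 0.35 and Ftcd between 0.31 and 0.43. Those of Uroc1 (-0.066 to 0.097) and Amdhd1 (-0.071 to 0.045) took either sign; both were below 0 with library totals only and without GFP replicate 1. Scaling by library totals only gave the lowest value of each of these members. The members' median of 0.25 was 0.18 with library totals only, 0.18 without a low-count filter (which brings in Chdh and Shmt1) and 0.20 to 0.28 when 1 library was left out. The replicate numbers showed no clear sign of pairing (correlations of same-numbered deviations of 0.064, -0.024 and 0.036 over 10390 genes). Libraries with unlike numbers gave -0.064 to 0.051, and so few correlations cannot settle whether libraries were paired. With the replicate block in 6 libraries the median was 0.19 and 2 genes were called. The same 6 libraries without it, an alternative chosen after seeing the data, gave 0.19 and 1. Over all genes, 4 were called; library totals only gave 1, DESeq2 135 (73 higher, 62 lower), and leaving out 1 library 1 to 6. The other pathway lists had 0 calls under every alternative but DESeq2, with 2. The causes were not tested. Chdh and Shmt1 had too few counts to be tested, and 4 libraries a group limit what folds near 1.3 can show. In simulated data edgeR found 16% of 1.5-fold changes, made in genes drawn at random from all those tested. That share is not specific to the members, and the share for genes with their levels and spread was not measured.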

Other observations

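Beyond the one-carbon genes, 25 tested enzymes of other amino acid breakdown showed 15 with a higher and 10 with a lower mean in POLR2G livers, with a median log2 fold change of 0.030. None passed edgeR's test over all genes, 5 were higher and 0 lower at an unadjusted p under 0.05 (4.2% of all genes were higher at that p), and in 4 of the 25 every POLR2G library lay above every GFP library, against 2.83% of all genes. Gpt, the alanine aminotransferase that was among the genes most like Hal, averaged 353 CPM in POLR2G livers and 278 CPM in GFP livers (log2 0.35, SE 0.059).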
